A study of Mus musculus with 8 samples.

Results

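The comparison described here is between sh8 and WT 3T3-L1 cells before they were induced to become fat cells. It uses 4 of the 8 arrays of the study, chosen by their labelled line and day: sh8 at day -2, sh8 at day 0, WT at day -2 and WT at day 0. 3T3-L1 is an established line of mouse embryonic fibroblasts committed to the fat lineage. sh8 cells were stably transfected with shRNA-8, which targets the long noncoding RNA slincRAD, and WT cells are the unmodified parent line. All 4 samples came from cells kept in medium with newborn calf serum, with confluence at day 0, so those of day -2 were taken before it. None had yet received the hormone mix of isobutylmethylxanthine, dexamethasone and insulin that was given from confluence on. The other 4 arrays, taken at days 2 and 4 after induction, carry higher levels of lung transcripts. They enter only where the difference before induction is set against the one after it, and in alternative filters and estimates of spread.

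A preadipocyte is a fibroblast that proliferates, stops dividing on contact with its neighbours, and waits for an inducing signal. Its readiness to differentiate is set by transcription factors such as Ebf1 and Zfp423 that lie upstream of the nuclear receptor Pparg, and by secreted signals of the BMP family, which favour fat cell formation, and of the Wnt family, which hold it back. A difference between the lines at this stage is present before any response to the inducers.

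Each line and day was measured once, on an Agilent one-colour array, and the labels do not say that the arrays are separate cultures. A p-value therefore sets the mean gap between sh8 and WT against how far such gaps moved from one day to the next. That movement was taken partly from the gene itself (1 residual degree of freedom). The larger part came from a spread shared over all genes (2.35 prior ones), and the same holds for each SE. Such movement may be partly technical, and no p-value or SE here measures the spread between separate cultures. sh8 is 1 transfected line and the samples include no cells with a control shRNA. The knockdown was not checked, because slincRAD itself was not analysed here. All 4 arrays lay on the same slide in the same scan, the WT arrays in the first positions and the sh8 arrays after them, so line and position on the slide cannot be told apart. The 75th percentile of intensity was 1172 and 941 on the sh8 arrays of days -2 and 0, against 1242 and 932 on the WT arrays, and 64.94% to 68.55% of probes were well above background. The fibroblast markers fitted the label: 9 of 10, among them Col1a1, Pdgfra and Vim, were well above background on all 4 arrays, and the other, Fn1, was left out because of flagged spots. The 9 had a summed level of 649 and 785 times the 75th percentile in sh8, against 564 and 701 times in WT. Of 11 lung epithelium markers 4 to 7 were well above background on these arrays, with a summed level of 7.60 and 6.91 times the 75th percentile in sh8, against 10.6 and 9.74 times in WT, and the surfactant gene Sftpc was below background on all 4. Most of that sum was 1 gene, Lamp3, whose log2 level was 2.80 and 2.65 in sh8, against 3.35 and 3.22 in WT. Of the 5 lung markers well above background on 2 or more arrays, 4 were above WT and 1 below, with a median difference of 0.70. In RNA from whole cultures, fewer cells of a type and less RNA per cell cannot be told apart.

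A level below is the log2 intensity after subtraction of that array's 75th percentile, and a difference is sh8 minus WT on that scale. Genes had to exceed background clearly on 2 or more of the 4 arrays, which left 22015 genes and transcripts, 15073 of them named. Probes just inside this limit, well above background on exactly 2 arrays, had a median level of -5.65, and probes just outside it, on exactly 1 array, had -6.34. The lines differed in much the same way on both days. Across the 22015 genes, which are not independent replicates and share their arrays, the differences at day -2 and day 0 had a correlation of 0.67, and 79.6% had the same sign.

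On both days 571 genes (2.59%) were at least 2-fold higher in sh8 and 439 (1.99%) at least 2-fold lower. With limma, 150 genes (0.681%) were higher and 134 (0.609%) lower at an adjusted p under 0.05, 284 (1.29%) in all, and each of the 284 differed at least 2-fold. At an unadjusted p under 0.05 there were 5304 higher (24.1%) and 3626 lower (16.5%). Both sh8 arrays lay above both WT arrays for 6636 genes (30.1%) and below both for 4027 (18.3%). The count of adjusted calls sits on an edge, because a further 2323 genes had an adjusted p from 0.05 to 0.055, and it ran between 0 and 6110 under other settings. The levels on each array are therefore given for the leading genes, and the mean difference over both days for the others.

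**Figure D1:**
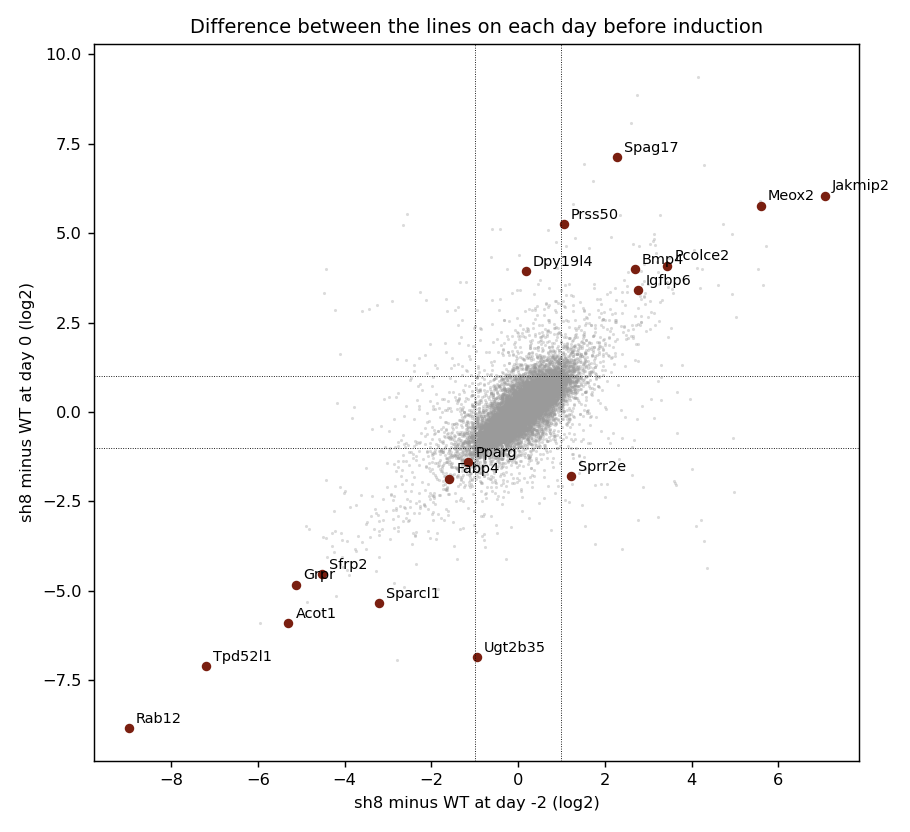
Each point is 1 of 22015 genes, placed by the difference between sh8 and WT (log2) at day -2 on the horizontal axis and at day 0 on the vertical axis. Dotted lines mark a 2-fold difference, and dark points are genes named in the text. Most genes lie near the centre along the diagonal, Rab12 and Tpd52l1 sit far down on both days, Jakmip2 and Meox2 far up on both days, and Ugt2b35, Spag17 and Prss50 moved between the days. Genes below background in 1 line are drawn at their measured difference, which is not a bound.

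The genes lost most completely in sh8 were well above background on neither sh8 array and on both WT arrays. Such genes met the background limit only through the line where they were high, and their p-values rest partly on values below background, so the bound is the result and the p is given only for completeness. Rab12, a small GTPase of the route from recycling endosomes to lysosomes, had levels of -8.01 and -7.65 in sh8 at days -2 and 0, against 0.97 and 1.19 in WT. It was at least 285-fold lower in sh8 (adjusted p = 0.0280, limma), the largest such bound among the lost genes named here. Tpd52l1, of the tumour protein D52 family, was at -7.52 and -7.51 in sh8, against -0.32 and -0.42 in WT, at least 105-fold lower (adjusted p = 0.0280). Renbp, which encodes an epimerase of amino sugars, was at -6.88 and -6.79 in sh8, against -0.92 and -0.90 in WT, at least 60.1-fold lower (adjusted p = 0.0280), and its second probe also showed a difference of -4.81. These 3 genes were low on both sh8 arrays and bright on both WT arrays, and varied little between the days. Nsun7, a putative RNA methyltransferase, and Abat, the enzyme that breaks down the transmitter GABA, were at least 22.2-fold and at least 13.7-fold lower (adjusted p = 0.0280 for each), although a dimmer second probe of Nsun7 differed by only -0.96. Ugt2b35, a glucuronosyltransferase, was different: it was at -5.72 and -6.42 in sh8, against -4.78 and 0.43 in WT, so its bound of at least 14.9-fold rests on the WT array of day 0 and did not pass the test (adjusted p = 0.173). In all, 343 genes were below background on both sh8 arrays and measured on both WT arrays, and 155 the other way round.

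A pair of further large losses was measured on at least 1 sh8 array. Acot1, which cleaves fatty acyl-CoA in the cytosol, was at -4.35 and -5.24 in sh8, against 0.95 and 0.66 in WT, and was well above background on 1 of the 2 sh8 arrays. Rab29, a GTPase of the Golgi and lysosome, was at -5.02 and -5.53 in sh8, against 0.04 and 0.14 in WT, likewise on 1 of the 2 sh8 arrays. Both differences were adjusted p = 0.0280 (limma), -5.60 for Acot1 and -5.37 for Rab29, but a second Rab29 probe, detected on every array, gave -1.81, so the size of that difference depends on the probe. Acot1 has near-identical neighbours in its family that its probe may share.

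Among genes well above background on all 4 arrays, the 15 with the largest deficit on both days included receptors, transporters and secreted proteins. Grpr, the receptor for gastrin-releasing peptide, was at -4.92 and -4.46 in sh8, against 0.19 and 0.37 in WT (difference -4.97 ± 0.13 SE, adjusted p = 0.0280). Sfrp2, a secreted protein that binds Wnt ligands, was at -4.60 and -3.77 in sh8, against -0.08 and 0.77 in WT (-4.53 ± 0.11, adjusted p = 0.0280). Mst1, which encodes macrophage-stimulating protein, was at -5.10 and -5.29 in sh8, against -0.90 and -0.13 in WT, and both of its probes agreed in direction (-4.68 and -3.40). Both sh8 arrays lay below both WT arrays for these 3 genes, as for 18.3% of all genes. Genes chosen for large gaps on both days can hardly do otherwise. Tsnax, whose product binds translin and processes small RNAs, was at -1.52 and -1.24 in sh8, against 2.55 and 2.81 in WT. Its difference was -4.07 at day -2 and -4.05 at day 0 (mean -4.06 ± 0.11, adjusted p = 0.0280).

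The other 11 genes of this group had differences between -3.29 and -4.28. They were the lipid transporter Abca3, best known from lung surfactant (-4.17), the arginine transporter Slc7a2 (-3.80), Brinp3 (-3.62), Mageb3 (-3.82), Lrrc32, which anchors latent TGF-beta on the cell surface (-3.97), the matrix protein Fbln7 (-4.01), the chloride channel regulators Clca3a2 (-3.84) and Clca3a1 (-3.77), Vstm2a, a secreted protein linked to preadipocyte commitment (-3.86), complement component C4b (-3.29) and the matricellular protein Sparcl1 (-4.28). Of the 11, 9 passed the test, while Vstm2a (adjusted p = 0.0507) and Sparcl1 (adjusted p = 0.0525) did not. Clca3a1 and Clca3a2 are near-identical copies whose probes may share transcripts, so they may be 1 signal.

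**Figure D2:**
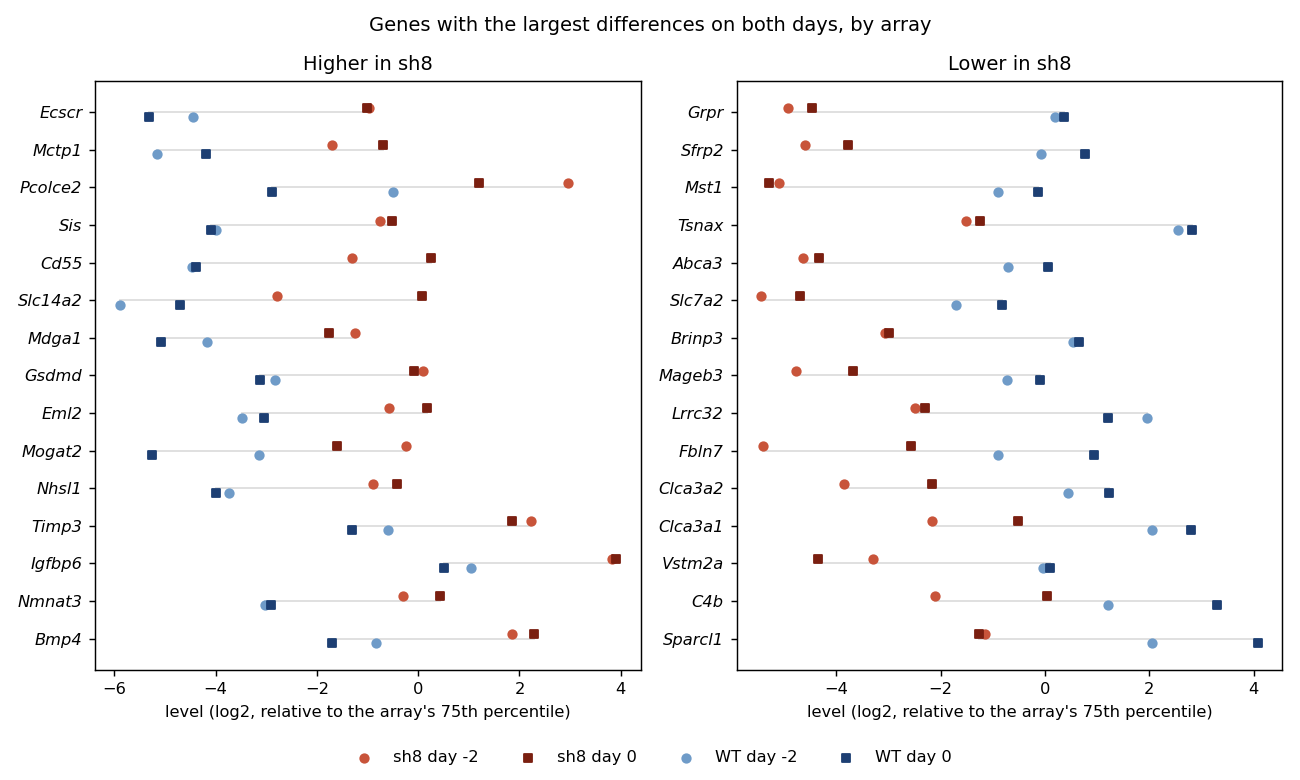
Level (log2, relative to the array's 75th percentile) of the 15 genes with the largest excess in sh8 (left panel) and the 15 with the largest deficit (right panel), among genes well above background on all 4 arrays. Red marks are sh8 and blue marks WT, circles day -2 and squares day 0. In each row both red marks lie on the same side of both blue marks, which the choice of genes by size all but fixes.

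Genes gained in sh8 included transcripts below background in WT, for which the p-value carries the same limit. Jakmip2, which codes for a protein that binds Janus kinases and microtubules, was at -1.31 and -1.94 in sh8, against -8.38 and -7.98 in WT, at least 62.2-fold higher (adjusted p = 0.0322, limma), with a second probe at 3.14. Meox2, a homeobox factor of the mesoderm, was at -2.72 and -2.20 in sh8, against -8.32 and -7.96 in WT, at least 34.9-fold higher (adjusted p = 0.0280). Wdfy4, known for antigen presentation in dendritic cells, was at least 43.3-fold higher (adjusted p = 0.0280), though its second probe was below background on all 4 arrays. Arxes1, an X-linked gene first described in adipocytes that has a near-identical copy next to it, was at -2.41 and -3.32 in sh8, against -8.13 and -7.96 in WT, at least 26.4-fold higher (adjusted p = 0.0393). Each of these 4 was seen on both sh8 arrays. Fli1, an ETS factor of blood and endothelial cells, was at -2.84 and -3.06 in sh8, against -7.79 and -8.02 in WT, at least 24.8-fold higher, and the secreted protein gene Tafa2 was at least 11.2-fold higher (adjusted p = 0.0280 for both).

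Spag17, a gene of motile cilia, and Hrnr, the epidermal protein hornerin, were also below background in WT, but most of their signal was on 1 array. Spag17 was at -4.48 and 0.88 in sh8 at days -2 and 0, against -6.76 and -6.24 in WT, and Hrnr at -5.15 and -0.06, against -6.87 and -6.51. Their bounds were at least 26.0-fold and at least 16.9-fold, and neither passed (adjusted p = 0.0962 and 0.115). Beside Hrnr, the 10 keratinocyte and epithelial markers had a summed level of 0.331 and 0.891 times the 75th percentile in sh8, against 0.261 and 0.264 times in WT, and their part in the result was not tested. Most of the sum on the sh8 array of day 0 was 1 gene, Krt4, at -0.78 there. Krt4 was well above background on none of the other arrays before induction.

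Genes well above background on all 4 arrays with the largest excess in sh8 included an endothelial surface protein, matrix regulators and growth factor ligands. Ecscr, known from endothelial cells, was at -0.97 and -1.02 in sh8, against -4.44 and -5.32 in WT (difference 3.89 ± 0.25 SE, adjusted p = 0.0418). Pcolce2, which speeds the trimming of procollagen, was at 2.95 and 1.19 in sh8, against -0.49 and -2.89 in WT (3.76 ± 0.21, adjusted p = 0.0380). Timp3, an inhibitor of metalloproteinases, was at 2.23 and 1.85 in sh8, against -0.60 and -1.31 in WT (3.00 ± 0.14, adjusted p = 0.0330). Igfbp6, which binds insulin-like growth factor 2, was at 3.82 and 3.91 in sh8, against 1.05 and 0.50 in WT (3.09 ± 0.20, adjusted p = 0.0432). Both sh8 arrays were above both WT arrays for all of these, as for 30.1% of all genes, which the choice by size all but fixes. Beside Ecscr and Fli1, the endothelial markers had a summed level of 2.61 and 2.35 times the 75th percentile in sh8, against 1.68 and 1.66 times in WT. Of the 10 endothelial markers 4 were well above background on each sh8 array, against 4 and 5 in WT. Kdr, Pecam1 and Egfl7 were above WT on both days, and Vwf was below it. The genes Cdh5, Tek, Cldn5, Emcn and Erg were below background on all 4 arrays. The part of these markers in the result was not tested.

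The rest of this group had differences between 2.97 and 3.94. They were Mctp1 (3.48), the intestinal disaccharidase gene Sis (3.41), the complement regulator Cd55 (3.91), the urea transporter Slc14a2 (3.94), Mdga1 (3.13), Gsdmd, which forms the pores of pyroptosis (2.97), the microtubule-binding Eml2 (3.06), Mogat2, which makes diacylglycerol (3.28), Nhsl1 (3.21), Nmnat3, of mitochondrial NAD synthesis (3.03), and Bmp4 (3.34). Of these 11, Cd55 (adjusted p = 0.0523), Slc14a2 (adjusted p = 0.0525) and Bmp4 (adjusted p = 0.0523) did not pass. A second probe of Slc14a2 about as bright as the first differed by 1.28, and one of Eml2 by 1.51.

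Among fat cell genes Fabp4 was lower in sh8, and both lists held members on either side of WT. Pparg, the master regulator of the fat cell fate, was at -0.58 and -0.84 in sh8, against 0.57 on both days in WT. It was 2.43-fold lower (-1.28 ± 0.13 SE), with an adjusted p = 0.0523 over these 4 arrays. The preadipocyte factors Ebf1 (-0.90, adjusted p = 0.0525), Zfp423 (-0.79, adjusted p = 0.0525) and the orphan receptor Nr2f2 (-0.71, adjusted p = 0.0530) were below WT on both days, though the other probes of Zfp423 gave only -0.22 and -0.36. Klf5, an early activator of Pparg, was above WT, at -0.41 and -2.50 in sh8, against -1.27 and -3.84 in WT (1.1, adjusted p = 0.0531). The C/EBP factors, which act in the cascade after induction, showed no such difference. Cebpb differed by -0.04 ± 0.12, Cebpd by -0.19 ± 0.25 and Cebpa by 0.22 ± 0.20, and their day -2 and day 0 differences had opposite signs. Of 27 adipogenic regulators, 10 were lower (37.0%, beside 16.5% of all genes) and 2 higher (7.41%, beside 24.1%) at an unadjusted p under 0.05 and 0 at an adjusted one, and their median difference was -0.18, beside 0.06 for all genes.

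Among genes of the mature fat cell, Fabp4, the fatty acid carrier, fell to 2.04 and 1.39 in sh8, against 3.62 and 3.25 in WT (-1.72 ± 0.13, adjusted p = 0.0476). Agt, the angiotensin precursor, was at -5.12 and -3.00 in sh8, against -3.09 and -1.35 in WT (-1.84, adjusted p = 0.0503). Plin4, a lipid droplet coat protein, was at 0.31 and 1.67 in sh8, against 2.22 and 2.81 in WT (-1.52, adjusted p = 0.0533). The lipase Lpl (-1.29, adjusted p = 0.0573) and the acyl-CoA synthetase Acsl1 (-0.96, adjusted p = 0.0523) were also below WT on both days. Gpd1, which makes the glycerol backbone of triglycerides, went the other way, at -1.82 and -2.10 in sh8, against -2.91 and -3.33 in WT (1.16, adjusted p = 0.0522). Of the 18 effector genes measured, 6 were lower (33.3%, beside 16.5% of all genes) and 3 higher (16.7%, beside 24.1%) at an unadjusted p under 0.05, and 1, Fabp4, passed after adjustment. Their median difference was 0.13, with 10 above 0 and 8 below, though the median was -0.03 at day -2 and -0.13 at day 0. The adipokine gene Adipoq was among 6 of the 24 listed that were too dim to be kept.

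Among surface proteins of mesenchymal progenitors, Thy1 was at 6.25 and 6.09 in sh8, against 4.83 and 4.81 in WT (1.35, adjusted p = 0.0504), and Ly6a, known as Sca-1, was at 4.35 and 4.10, against 3.31 and 2.94 in WT (1.1, adjusted p = 0.0523). Alcam (1.45) and Cd24a (1.30), both adhesion molecules, had an adjusted p = 0.0523 each. Sox9, a factor that restrains differentiation, was below WT (-0.66, adjusted p = 0.0576), and Dlk1, the preadipocyte factor Pref-1, differed by -0.33 ± 0.12 (adjusted p = 0.145). Of 16 measured genes of this list 6 were higher (37.5%, beside 24.1% of all genes) and 3 lower (18.8%, beside 16.5%) at an unadjusted p under 0.05, and 0 passed after adjustment. On both days 4 were at least 2-fold higher, where 2.59% of all genes were, and 0 at least 2-fold lower.

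**Figure D3:**
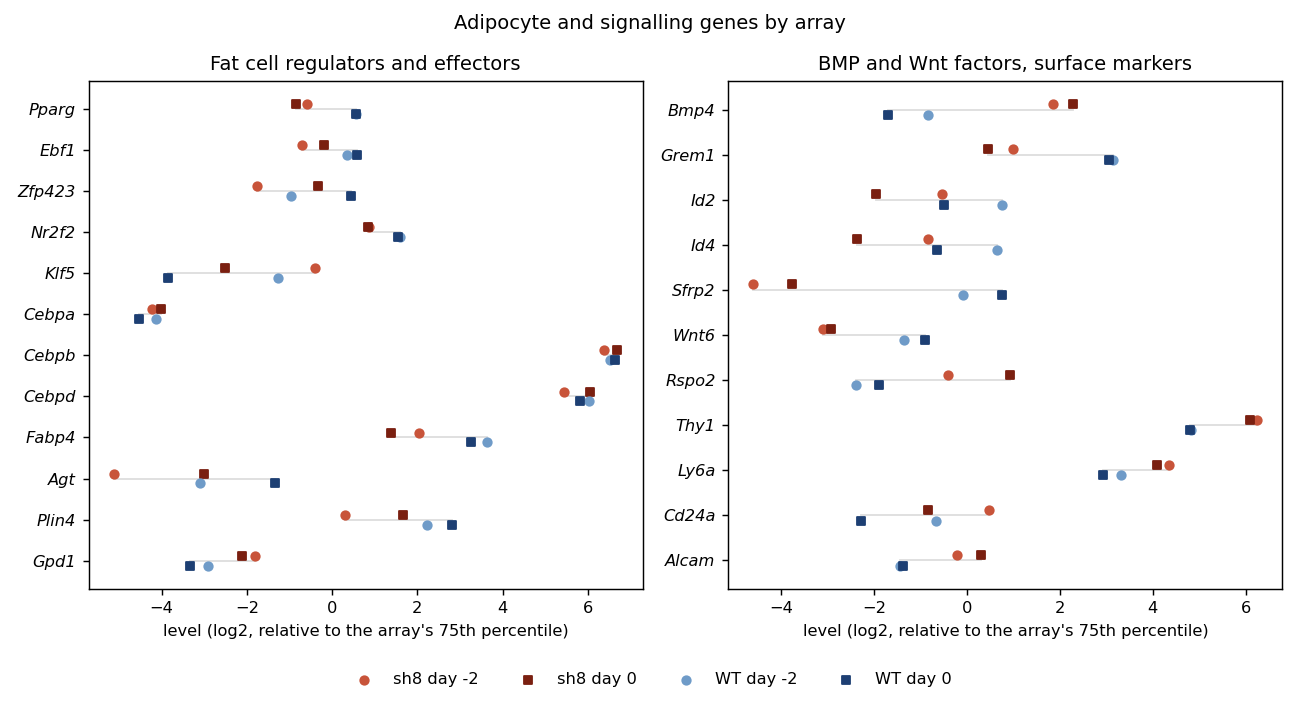
Level (log2, relative to the array's 75th percentile) of fat cell regulators and effectors (left panel) and of BMP and Wnt factors with progenitor surface markers (right panel). Red marks are sh8 and blue marks WT, circles day -2 and squares day 0. For Pparg, Fabp4, Grem1 and Sfrp2 both sh8 marks lie below both WT marks, for Bmp4 and Thy1 above, and for Cebpb and Cebpd the marks of the lines mix.

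In the BMP family a ligand and its antagonist stood on opposite sides of WT. Bmp4, the ligand that commits mesenchymal cells to the fat lineage, was at 1.85 and 2.28 in sh8, against -0.84 and -1.71 in WT (3.34 ± 0.37, 10.1-fold higher, adjusted p = 0.0523). Its antagonist Grem1 fell to 0.99 and 0.45 in sh8, against 3.15 and 3.05 in WT (-2.38 ± 0.16, adjusted p = 0.0442). The inhibitors of helix-loop-helix factors whose genes respond to BMP were nevertheless below WT: Id4 fell to -0.85 and -2.37 in sh8, against 0.64 and -0.64 in WT (-1.61, adjusted p = 0.0488), Id2 differed by -1.37 (adjusted p = 0.0504) and Id1 by -0.61 (adjusted p = 0.0603). The antagonist gene Fst (-1.24, adjusted p = 0.0523) and the stress-induced ligand Gdf15 (-2.25, adjusted p = 0.0516) were also below WT. Chrdl1 was below background in sh8, and at least 2.45-fold lower (adjusted p = 0.0513). Of 26 measured genes of TGF-beta and BMP signalling 8 were at least 2-fold lower on both days and 1, Bmp4, at least 2-fold higher, beside 1.99% and 2.59% of all genes. At an unadjusted p under 0.05, 9 were lower (34.6%, beside 16.5%) and 7 higher (26.9%, beside 24.1%), and 3 passed after adjustment, all lower (0.609% of all genes).

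Secreted Wnt factors were divided. Beside Sfrp2, the ligand Wnt6, which holds preadipocytes undifferentiated, fell to -3.10 and -2.93 in sh8, against -1.36 and -0.89 in WT (-1.89, adjusted p = 0.0452). Wnt2 was below background in sh8 and at least 2.78-fold lower (adjusted p = 0.0442), and Wnt9a differed by -0.92 (adjusted p = 0.0525). The R-spondins, which amplify Wnt signals at the receptor, were above WT: Rspo2 was at -0.41 and 0.92 in sh8, against -2.39 and -1.89 in WT (2.40, adjusted p = 0.0523), and Rspo3 at -0.52 and 0.18, against -2.57 and -3.12 (2.68, adjusted p = 0.0525). Of 20 measured genes 3 passed, all lower (0.609% of all genes), among them Wnt2, whose p carries the limit given for genes lost in sh8. By unadjusted p 6 were lower and 6 higher (30% each, beside 16.5% and 24.1% of all genes). In the insulin-like growth factor system, Igf1 was below WT (-1.41, adjusted p = 0.0525, with a dimmer probe at 0.37) and its binding proteins Igfbp6, given above, and Igfbp4 (1.31, adjusted p = 0.0525) above it.

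Matrix genes lay on both sides of WT. Of 43 measured, 5 were at least 2-fold higher on both days and 5 at least 2-fold lower, beside 2.59% and 1.99% of all genes. Fbn1, the fibrillin of microfibrils, rose to 4.20 and 4.21 in sh8, against 2.30 and 2.12 in WT (1.99 ± 0.12, adjusted p = 0.0393). Some genes of the basement membrane were also above WT, with Col4a1 at 1.00, Col4a2 at 1.04 and the laminin chain Lamc1 at 1.26 (adjusted p = 0.0523, 0.0523 and 0.0513). So were Fbln1 (2.19), Spp1 (1.33) and Eln, the elastin gene (0.87). Below WT were periostin (Postn), at 0.57 and 4.00 in sh8, against 4.20 and 6.31 in WT (-2.97 ± 0.37, adjusted p = 0.0525), the basement membrane linker Nid2 (-2.11) and the small proteoglycans Lum (-2.61) and Dcn (-1.44). Lum was well above background on 1 of the 2 sh8 arrays. The main fibrillar collagen gene Col1a1 differed by 0.21 ± 0.12 (adjusted p = 0.27). Of 43 matrix genes 18 were higher (41.9%, beside 24.1% of all genes) and 6 lower (14%, beside 16.5%) at an unadjusted p under 0.05, their median was 0.26, and 1, Fbn1, passed. Among proteases the aggrecanase Adamts15 was above WT (1.64) and the membrane-bound Mmp14 below it (-1.09), with an adjusted p = 0.0504 and 0.0523.

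The genes of cholesterol synthesis were lower in sh8 nearly throughout. Of 25 measured, 17 were lower and 0 higher at an unadjusted p under 0.05 (68.0%, beside 16.5% of all genes), and 21 were below WT on both days. Counting either direction, 79.6% of all genes had the same sign on both days. The median difference of the list was -0.86, -0.55 at day -2 and -1.09 at day 0, and 1 member, Insig1, passed after adjustment. Insig1, which retains the sterol sensor SCAP in the endoplasmic reticulum, fell to -2.53 and -3.79 in sh8, against -1.12 and -2.19 in WT (-1.51 ± 0.12, adjusted p = 0.0489). Lss, which closes the sterol rings, was at -3.12 and -4.55 in sh8, against -1.73 and -3.30 in WT (-1.32, adjusted p = 0.0504), and Msmo1, a demethylase of later sterols, at 3.55 and 1.45, against 4.77 and 3.49 (-1.63, adjusted p = 0.0531). The cholesterol carrier Stard4 (-1.30), the mevalonate enzymes Mvd (-1.26) and Idi1 (-1.42), and Nsdhl (-1.13) were also below WT on both days. The regulator gene Srebf2 (-0.39, adjusted p = 0.414) was not among the 17. Insig1, Lss and Msmo1 were each lower at day 0 than at day -2 in both lines.

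The promoter of Hmgcs1, the synthase of HMG-CoA (-0.90, adjusted p = 0.0831), is printed because it was the only one of 17 cholesterol gene promoters in the RefSeq table (GRCm38.p6) that held the sterol response element letters TCACNCCAC, N being any base, in the 250 bases before the start site on either strand. That is 5.88% of the members, beside 1.22% of the 27025 genes in the table. The stretch lies at chr13:119690174-119690262, plus strand, from 177 to 89 bases before the start, with the match in capitals.
Hmgcs1: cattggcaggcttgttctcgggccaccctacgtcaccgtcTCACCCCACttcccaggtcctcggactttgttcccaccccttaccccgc

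Interferon response genes were lower in sh8 as a group, and more so at day -2. Many such genes are switched on through the interferon-stimulated response element of their promoters, and many act against viruses. Of 34 measured, 20 were lower and 0 higher at an unadjusted p under 0.05 (58.8%, beside 16.5% of all genes), and 25 were below WT on both days. Over all genes 79.6% had the same sign on both days, in either direction. The median difference was -0.78, -1.11 at day -2 and -0.42 at day 0, and 0 passed after adjustment by limma over these 4 arrays. The fit over all 8 arrays takes its spread also from the arrays after induction. In that fit 9 of the 34 were lower at an adjusted p under 0.05, beside 10.5% of all genes. Ifi47, an interferon-induced GTPase, was at 0.28 and 2.10 in sh8, against 2.65 and 3.45 in WT (-1.86 ± 0.30, adjusted p = 0.0540). Usp18, which removes ISG15 from proteins, was at 1.13 and 2.53, against 3.54 and 3.71 (-1.80 ± 0.35, adjusted p = 0.0621). For both of these, the sh8 level was below that of WT on the same day and the gap was wider at day -2. The GTPase gene Irgm1 (-1.20), the immunoproteasome subunit Psmb9 (-0.90) and Ifit2 (-0.77) followed (adjusted p = 0.0525, 0.0534 and 0.0561), while the activator Irf1 differed by 0.17 ± 0.11 (adjusted p = 0.306). Beside this list, 10 and 8 of 14 macrophage and leukocyte markers were well above background in sh8, against 10 and 9 in WT, with a summed level of 9.59 and 9.31 times the 75th percentile in sh8, against 6.74 and 7.78 times in WT, and their part in the result was not tested.

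The promoters of 29 of the 34 were in the RefSeq table, and 12 of them (41.4%) held the letters GAAA, any 2 bases and GAAA again in the 250 bases before the start site on either strand, beside 3.46% of the 27025 genes. The 6 with the lowest p among the 12 are printed, since they show the element in genes that were below WT on both days. Capitals mark the matches, which may overlap each other, and a match on the opposite strand reads TTTC, any 2 bases and TTTC. Irgm1 (chr11:48871421-48871490, minus strand) and Oas1a (chr5:120907526-120907585, minus strand) hold 2 overlapping matches within 30 and 20 bases of the start. Igtp (chr11:58199482-58199555, plus strand) holds 1, Gbp3 (chr3:142559959-142560043, plus strand) 2 on the opposite strand, Bst2 (chr8:71537547-71537642, minus strand) 2, and Isg15 (chr4:156200835-156200936, minus strand) 3.
Irgm1: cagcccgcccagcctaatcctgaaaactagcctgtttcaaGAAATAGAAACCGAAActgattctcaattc
Oas1a: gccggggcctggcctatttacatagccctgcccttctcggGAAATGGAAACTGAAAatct
Igtp: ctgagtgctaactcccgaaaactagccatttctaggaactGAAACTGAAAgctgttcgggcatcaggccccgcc
Gbp3: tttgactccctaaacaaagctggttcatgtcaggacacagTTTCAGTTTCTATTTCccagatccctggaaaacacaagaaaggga
Bst2: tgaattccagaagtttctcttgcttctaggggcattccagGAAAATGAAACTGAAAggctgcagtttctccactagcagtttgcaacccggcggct
Isg15: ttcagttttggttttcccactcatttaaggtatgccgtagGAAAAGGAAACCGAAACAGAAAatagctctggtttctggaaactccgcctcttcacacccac

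These 6 genes differed by -1.20 (Irgm1), -1.27 (Oas1a, an RNA-sensing synthetase), -1.06 (Igtp, a GTPase), -1.06 (Gbp3, a guanylate-binding protein), -1.29 (Bst2, tetherin) and -0.79 (Isg15, the ubiquitin-like modifier). Isg15 was at 4.13 and 5.57 in sh8, against 5.30 and 5.99 in WT, and Bst2 at 2.57 and 4.27, against 4.39 and 5.03. On each day sh8 was below WT, but the sh8 level of Isg15 at day 0 lay above the WT level at day -2, so the lines overlap when the day is left out of account. The adjusted p of the 6 ran from 0.0525 (Irgm1) to 0.0992 (Isg15).

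**Figure D4:**
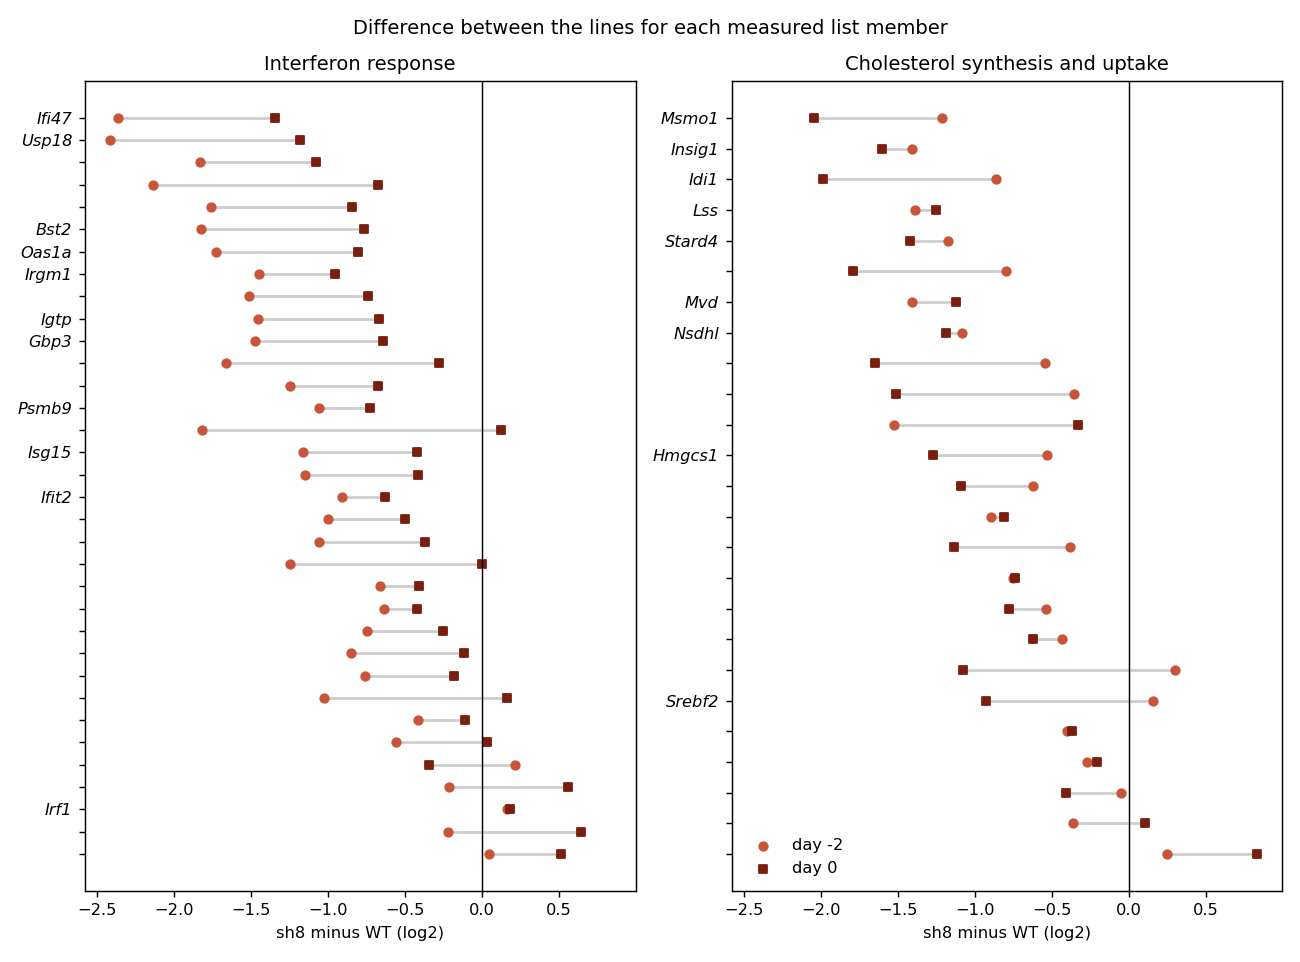
Difference between sh8 and WT (log2) at day -2 (circles) and day 0 (squares) for each measured member of the interferon response list (left panel, 34 genes) and of the cholesterol synthesis and uptake list (right panel, 25 genes), ordered by the mean of both days, with the genes named in the text labelled. Most interferon genes lie further below 0 at day -2 and many cholesterol genes further below 0 at day 0.

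**Figure D5:**
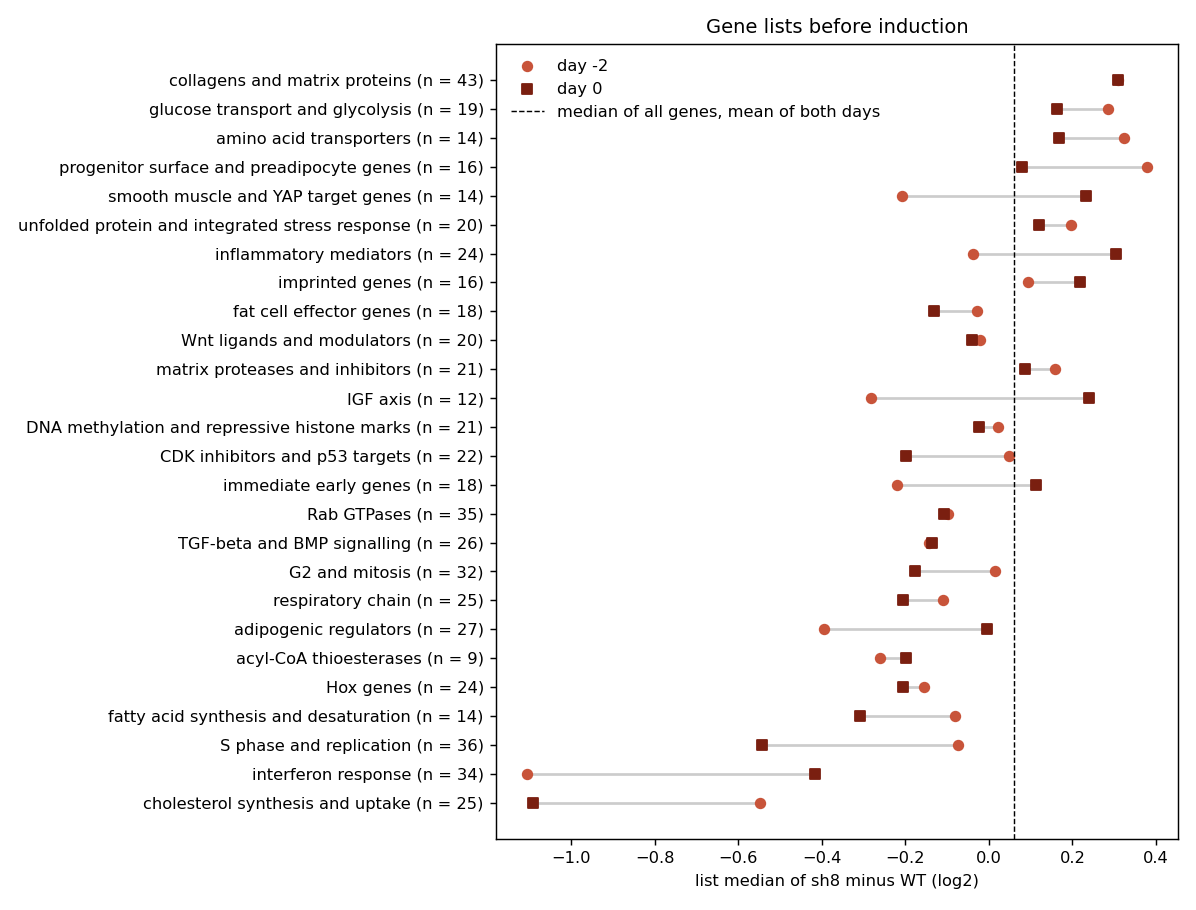
Median difference between sh8 and WT (log2) of 26 gene lists at day -2 (circles) and day 0 (squares), with the number of measured genes after each name and the median of all genes (0.06) as a dashed line. The cholesterol list (-0.55 and -1.09) and the interferon list (-1.11 and -0.42) lie furthest below the line in the mean of both days, while at day 0 the S phase list (-0.54) lies below the interferon list.

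Genes of the cell cycle differed little and unevenly. Of 36 genes of S phase and replication 10 were lower (27.8%, beside 16.5% of all genes) and 3 higher (8.33%, beside 24.1%) at an unadjusted p under 0.05, 0 were 2-fold different on both days, and the median was -0.07 at day -2 and -0.54 at day 0. Of 32 genes of G2 and mitosis 6 were lower (18.8%) and 4 higher (12.5%), with a median of -0.14. Chaf1b, a chromatin assembly factor, was at 1.57 and -0.47 in sh8, against 2.44 and 0.79 in WT (-1.06, adjusted p = 0.0525), and the S phase activator E2f1 differed by -0.62 (adjusted p = 0.0564). Among brakes and drivers of G1, Cdkn1a, which encodes p21, was at 1.26 and 1.42 in sh8, against 0.38 and 0.93 in WT (0.68 ± 0.15, adjusted p = 0.0706). Cdkn1b, which encodes p27, was below WT (-0.67, adjusted p = 0.0589), as was Cdkn2c, which encodes p18 (-0.78, adjusted p = 0.0525), and cyclin D1 (Ccnd1) was above it (0.90, adjusted p = 0.0525). The DNA methyltransferase gene Dnmt1 was at -0.02 and -1.73 in sh8, against -0.68 and -2.16 in WT (0.55 ± 0.13, adjusted p = 0.0737).

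Several smaller groups held 1 to 3 genes past the test, which 0.681% of all genes passed higher and 0.609% lower. Of 24 measured Hox genes, which record the body position a cell came from, 3 passed, all lower. At an unadjusted p under 0.05, 9 were lower (37.5%, beside 16.5% of all genes) and 6 higher (25%, beside 24.1%). Hoxa7 reached 1.30 and 1.81 in sh8, against 2.81 and 3.24 in WT (-1.47, adjusted p = 0.0470), and Hoxa3 differed by -1.62 (adjusted p = 0.0488). Hoxc9 was below background in sh8 and at least 11.1-fold lower (adjusted p = 0.0280). Its p carries the limit given for genes lost in sh8, although it is counted among the 3. Hoxc6, which lies in the same cluster as Hoxc9, was above WT instead (1.57, adjusted p = 0.0677). The cytokine gene Il6 fell to 0.08 and -1.11 in sh8, against 1.86 and 0.53 in WT (-1.71, adjusted p = 0.0435), while Il11, of the same family, was above WT (1.05, adjusted p = 0.0523).

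Amino acid transporters were split, with the cystine carrier Slc7a11 (1.85, adjusted p = 0.0393) and the glutamine carrier Slc38a1 (1.64, adjusted p = 0.0451) higher in sh8, and Slc7a2, given above, lower. By unadjusted p, 5 of the 14 measured were higher (35.7%, beside 24.1% of all genes) and 1 lower (7.14%, beside 16.5%). In smooth muscle the light chain gene Myl9 rose to 2.48 and 0.82 in sh8, against 0.91 and -0.93 in WT (1.66, adjusted p = 0.0451). The smooth muscle actin gene Actg2 was at -4.09 and -7.60 in sh8, against -1.32 and -4.28 in WT (-3.04, adjusted p = 0.0394), and was well above background on 1 of the 2 sh8 arrays. Of 16 measured imprinted genes Slc22a18 passed, at -2.13 and -0.84 in sh8, against -4.15 and -3.40 in WT (2.29, adjusted p = 0.0499), and Peg3 differed by 1.15 (adjusted p = 0.0525). By unadjusted p, 6 of the 16 were higher (37.5%, beside 24.1% of all genes) and 1 lower (6.25%, beside 16.5%). Of 35 measured Rab GTPases 2 passed, Rab12 and Rab29, both lower (0.609% of all genes). Rab12 was below background in sh8, so its p carries the limit given for genes lost in sh8. By unadjusted p, 9 of the 35 were lower (25.7%, beside 16.5% of all genes) and 4 higher (11.4%, beside 24.1%). Of 19 genes of glucose transport and glycolysis 6 were higher (31.6%, beside 24.1% of all genes) and 1 lower (5.26%, beside 16.5%) at an unadjusted p under 0.05. Of 25 respiratory chain genes 1 was higher (4%) and 6 lower (24%), and 0 of either list passed the adjusted test.

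Genes with a 2-fold difference on both days lay next to each other more often than named genes at large, though most had no such neighbour. Of the 414 named genes at least 2-fold higher, 63 (15.2%) had a neighbour among the named genes kept that was also at least 2-fold higher, while 5.28% of all named genes kept had such a neighbour. For the 329 lower genes it was 31 (9.42%), beside 4.3%. The order of genes was taken from RefSeq (GRCm38.p6). A run of 3 lower neighbours on chromosome 2 held Fsip1, Gpr176 and Eif2ak4, the last of which encodes the amino acid sensor GCN2. Gpr176 was at -0.74 and -1.62 in sh8, against 1.32 and -0.07 in WT (-1.80, adjusted p = 0.0518), and Eif2ak4 at 1.5 and 2.25, against 3.18 and 3.26 (-1.35, adjusted p = 0.0538). Fsip1 was below background in sh8 and at least 4.56-fold lower (adjusted p = 0.0523). The longest run, 9 higher neighbours on chromosome 7, was made up of 8 vomeronasal receptor genes of the Vmn1r family and Nlrp4e, and near-identical copies in that family can share a probe's signal. That run is part of the 63, and the count was not repeated without it.

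For a small set of genes the difference between the lines was itself different on the 2 days, with no test possible for 1 array each. Prss50, a testis protease, was at -4.03 and 0.41 in sh8 at days -2 and 0, against -5.08 and -4.84 in WT, and its second probe, detected on each of the 4 arrays, gave a difference of only 0.05. Gzmc, a granzyme, was at -3.12 and 0.36 in sh8, against -5.26 and -4.53 in WT, and Dpy19l4, a mannosyltransferase-like protein, at -2.97 and 0.46, against -3.14 and -3.48. Pik3ca, the catalytic subunit of PI3-kinase, was at -1.92 and 1.04 in sh8, against -2.18 and -1.83 in WT. In these 4 the sh8 array of day 0 stood alone above the other 3, as it did for Spag17 and Hrnr. After induction the sh8 excess of Prss50 read 5.93 and 5.12 at days 2 and 4, that of Gzmc 5.77 and 4.97, that of Spag17 7.31 and 6.65, and that of Hrnr 6.93 and 5.64. In the other direction, the mitochondrial serine enzyme Shmt2 was at 1.78 and 0.10 in sh8, against 1.46 and 2.21 in WT, Plppr3 at -3.66 and -5.10, against -3.18 and -1.72, and Lrrc17 at -4.13 and -4.37, against -1.50 and 0.52. Pxt1 (-0.87 and 2.00), R3hdml (0.69 and -2.06) and Rfpl4 (0.59 and -1.82) changed sign between the days. None of the 10 passed for the mean of both days by limma, the lowest adjusted p among them being 0.0554 (Lrrc17). The 10 were chosen for how far their gap moved between the days. The test sets the mean gap partly against that movement, so the choice itself works against passing.

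Whether the difference changed with induction was tested over all 8 arrays, with the line by period term. By limma 0 genes passed an adjusted p of 0.05, the lowest being 0.0516, and 5389 (24.5%) had an unadjusted p under 0.05. Arrays before and after induction lay on different slides, and lung transcripts were higher after, so induction, slide and those transcripts cannot be told apart. Sfrp2 differed by -4.52 and -4.54 before induction and by -3.50 and -4.27 after it, Tsnax by -4.07 and -4.05 before and -4.03 and -3.72 after, and Pparg by -1.15 and -1.41 before and -1.95 and -1.84 after. Abca3 differed by -4.17 on average before and by -0.86 and -0.64 after.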

How the data were processed

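Total RNA was labelled with Cy3 and scanned as a single-colour array with the Feature Extraction software 11.0.1.1 of Agilent, per the file headers and the submitters' processing notes, although the series text names another maker of arrays. The deposited files hold the processed intensity of each spot, background-subtracted by the scanner software and not scaled between arrays, and the median signal and background intensity. The authors also deposited values on a log2 scale, with column medians of 6.39 and a correlation of 0.999 to 1.00 with each array; its normalization is unstated in the sources used here, and it served as an alternative.

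Of 44397 spots 1377 controls were left out. Spots of a probe were averaged, giving 39429 probes, and 42 with an outlier flag were left out. Values are log2 processed intensities minus the array's 75th percentile. Through RefSeq accessions (GRCm38.p6) 27234 probes were named and 12195 were not. The file headers name build mm9, so gene order and promoter positions are those of the RefSeq tables alone. Of several probes for a gene (3946 genes) the one with the highest mean over the 4 arrays was used. A gene below background on both arrays of a line has a bound there: the brighter line's mean over a floor, which on each array is the gene's measured value or, where that is smaller, the dimmest signal that still counts as well above background.

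Tests used limma 3.58.1 in R 4.3.3 with day as a block and line as the contrast over 4 arrays, 1 residual degree of freedom and 2.35 prior ones, and Benjamini-Hochberg adjustment over 22015 genes. The day pairs the arrays by label, and deviations of same-day arrays from the mean of their line correlated at 0.67. The procedure was run on data simulated from the fitted model, which checks the code and not how well that model fits these arrays. Named genes were the 15 with the largest difference each way well above background on all 4 arrays, 6 each way below background in 1 line, up to 5 of lowest p per list, 6 each way that moved most between the days, the 5 of lowest p each way, and 8 set genes; a few of these are not reported here. A further 28 genes were chosen after their values were seen, among them Usp18, Postn, Rspo3 and Hmgcs1. The members and lists were chosen with earlier results of these data known. Background correction by normexp was planned on the mean signal and run on the median signal, with an offset of 50. Other scalings, filters, probe summaries, spread estimates and fits without the day block or without 1 array were alternatives. The number of arrays limits the precision.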

Additional observations from a re-analysis of the deposited data

Results flagged for a closer look

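For 2 of the genes described, the difference between the lines was at least 2-fold in opposite directions at day -2 and day 0, which was not tested because each line and day has 1 array. Foxe3, a forkhead factor of the lens, was at -5.25 and -3.75 in sh8, against -4.21 and -5.59 in WT, so that its difference moved by 2.88 on the log2 scale, reading -1.05 at day -2 and 1.84 at day 0. Sprr2e, an epidermal envelope protein of a family of near-identical genes, was at -2.71 and -4.62 in sh8, against -3.93 and -2.82 in WT, a change of -3.02, reading 1.22 at day -2 and -1.80 at day 0. Among all 22015 genes 86 showed such opposite differences, 8 of them well above background on all 4 arrays.

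The 4 arrays taken after induction were not used for the comparison, and they carry a stronger lung signal than the earlier ones, on which 4 to 7 of 11 lung epithelium markers were well above background. After induction 11 of 11 were well above background, with a median level at days 2 and 4 of 0.26 and 0.57 in sh8, and of -0.38 and -0.00033 for WT cells. Before induction that median was -5.93 and -6.86 in sh8, against -6.38 and -5.47 in WT.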

How the results depend on the processing

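Under 11 alternatives that kept all 4 arrays, the direction of 0 of the 149 genes named turned. Several of the 11 could not turn one. Fits without the block, with the spread from all 8 arrays or with an intensity trend leave each difference unchanged by construction. The filters reuse the same array values, and the one that asks for all 4 arrays held only 128 of the 149. The adjusted calls depended on the setting. Against 284 genes past an adjusted p of 0.05, there were 5411 with normexp background, 2658 with median scaling, 418 with quantile scaling, 187 with the authors' deposited values, 182 with the mean of a gene's probes, 6110 among genes well above background on all 4 arrays, 5607 with the spread from all 8 arrays, 5882 with an intensity trend, 0 with no filter and 0 with the filter over all 8 arrays, an alternative chosen after seeing the data, as was the use of the median signal for normexp. Without the pairing by day (no replicate block) 3 passed, with 2468 higher and 1166 lower at an unadjusted p under 0.05. Of the 54 named genes past the threshold, 54 lost it without the filter, 51 without the block, 15 with the mean of probes, 14 with the authors' values and 2 with normexp. Genes 2-fold higher and lower on both days numbered 216 and 199 with normexp and 267 lower when all 4 arrays had to be above background. Without the filter 8816 genes were higher by unadjusted p. Median scaling moved the median of all genes to -0.11 and gave 3193 higher and 5568 lower by unadjusted p, 36.4% higher, beside 59.4% in the main setting and 52.9% with quantile scaling, and 676 genes 2-fold lower on both days.

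Leaving out arrays: a single day gave 1052 to 1330 genes 2-fold higher and 836 to 906 lower. With 1 array left out and no block, where the lone array is assumed to vary like the others, 0 genes passed, and 789 to 1354 higher and 406 to 967 lower had an unadjusted p under 0.05. By construction such a fit mixes the day with the line, and single days take 1 difference. Over these, the difference changed sign for 14 genes: Foxe3 ran from -1.05 to 1.84, Pxt1 from -0.87 to 2.00, Sprr2e from -1.80 to 1.22, R3hdml from -2.06 to 0.69, Shmt2 from -2.11 to 0.32, Rfpl4 from -2.31 to 1.08, Cebpa from -0.094 to 0.53, Cebpb from -0.20 to 0.11, Cebpd from -0.61 to 0.23, Dnmt1 from -0.31 to 1.41, Klf5 from -0.18 to 2.38, Idi1 from -2.96 to 0.12, Srebf2 from -1.33 to 0.55 and Irf1 from -0.028 to 0.37. The cause of the other changes was not tested. The medians of the cholesterol and interferon lists stayed below 0 throughout, from -1.62 to -0.061 and from -1.38 to -0.26. Other list medians turned: that of the S phase list ran from -1.34 to 0.67, of G2 and mitosis from -1.72 to 1.64, of the adipogenic regulators from -0.40 to 0.049 and of the fat cell effectors from -0.13 to 0.15, and median scaling turned 9 of 26 lists.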
